A study of Homo sapiens with 18 samples.

Results

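RNA of the metallothionein genes MT2A, MT1X, MT1E, MT1F, MT1G and MT1M, of MTF1, the transcription factor that senses zinc, and of SLC30A1, the zinc exporter of the plasma membrane, was followed across all 6 conditions of a study on MDA-MB-231 cells, a triple negative breast cancer line. These 8 of the 57448 genes in the count table were chosen by symbol, after MT2A RNA had been seen to be higher in cells given MK2206, an allosteric inhibitor of AKT. Treated against untreated values of all members are therefore a description and carry no test. Parental cells without a modification (WT), cells with GPS2 knockout by sgRNA set 1 (KO1) or set 2 (KO2) and cells with myristoylated AKT (myrAKT) were left untreated. Further cultures of KO1 and KO2 received 10 µM MK2206 for 4 h before collection (KO1+MK and KO2+MK), which gave 18 libraries, 3 for each group. Lentivirus had brought Cas9 and sgRNAs into the knockout lines, which were kept as pools of cells, and the myrAKT line was made with a retrovirus that carries AKT1 with a signal for attachment to membranes. MK2206 was given to GPS2 knockout lines only, no vehicle is named for the untreated cultures, and an effect of the drug in WT cells cannot be told apart from its effect in knockout cells. The labels do not state whether replicates came from separate cultures, so the spread between them may be technical.

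Metallothioneins are small proteins rich in cysteine that bind zinc and copper and buffer their free levels in the cell. When zinc rises in the cytosol, MTF1 binds it, enters the nucleus and attaches to metal response elements (MREs) in the promoters of the metallothionein genes and of SLC30A1, whose product then carries zinc out of the cell. Glucocorticoids, oxidants and heat are also known inducers of metallothionein genes.

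On hg38 with GENCODE release 44, the metallothionein genes lie together on chromosome 16. MT2A (ENSG00000125148) spans 56608584 to 56609497 on the plus strand and has 3 exons with 183 coding bases in its canonical transcript. MT1E (ENSG00000169715, 56625475 to 56627112), MT1M (ENSG00000205364, 56632659 to 56633981), MT1F (ENSG00000198417, 56657731 to 56660698) and MT1X (ENSG00000187193, 56682470 to 56684196) are on the same strand, and MT1G (ENSG00000125144, 56666730 to 56668065) is on the minus strand. MTF1 (ENSG00000188786, 37809574 to 37859592) and SLC30A1 (ENSG00000170385, 211571568 to 211579161) are on the minus strand of chromosome 1, with 11 and 2 exons.

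The promoters are shown because they were searched for the sequence that MTF1 is known to read, which 3 of the 4 held. RefSeq promoter sequences of GRCh38.p14 were matched for 4 of the 8 members by symbol, and the 250 bases before the start of each gene were searched on both strands for the MRE core, TGCACNC or TGCGCNC. Each sequence is written 5′ to 3′ on the strand of its gene, and capitals mark the MRE core matches, read as the reverse complement where the match is on the other strand. The windows are chr16:56608334-56608583 on the plus strand for MT2A, chr16:56682220-56682469 on the plus strand for MT1X, chr1:211579162-211579411 on the minus strand for SLC30A1 and chr1:37859593-37859842 on the minus strand for MTF1.
MT2A: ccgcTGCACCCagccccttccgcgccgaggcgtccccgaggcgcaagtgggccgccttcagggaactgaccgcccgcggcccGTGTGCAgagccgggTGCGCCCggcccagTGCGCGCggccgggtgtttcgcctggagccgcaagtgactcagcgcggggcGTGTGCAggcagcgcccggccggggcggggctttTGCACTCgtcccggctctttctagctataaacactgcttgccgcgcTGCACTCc
MT1X: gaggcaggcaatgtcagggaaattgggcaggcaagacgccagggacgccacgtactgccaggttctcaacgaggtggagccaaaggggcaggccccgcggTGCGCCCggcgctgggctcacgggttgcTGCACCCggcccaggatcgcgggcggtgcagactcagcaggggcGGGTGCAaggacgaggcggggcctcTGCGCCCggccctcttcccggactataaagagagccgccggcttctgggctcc
SLC30A1: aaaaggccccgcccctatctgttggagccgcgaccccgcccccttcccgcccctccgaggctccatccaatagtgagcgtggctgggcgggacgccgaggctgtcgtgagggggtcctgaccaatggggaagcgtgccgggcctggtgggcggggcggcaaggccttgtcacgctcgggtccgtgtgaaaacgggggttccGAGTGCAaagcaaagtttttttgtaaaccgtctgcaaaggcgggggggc
MTF1: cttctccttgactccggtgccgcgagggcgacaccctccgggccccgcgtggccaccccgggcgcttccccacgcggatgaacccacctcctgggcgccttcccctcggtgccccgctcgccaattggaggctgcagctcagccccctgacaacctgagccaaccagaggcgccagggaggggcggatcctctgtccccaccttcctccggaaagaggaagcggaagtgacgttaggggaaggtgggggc

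MT2A held 7 MRE cores, which begin 246, 168, 153, 139, 88, 54 and 8 bases before the start site, with those at 168 and 88 on the other strand. At least 7 cores were found in 11 of 35116 RefSeq promoters of the same length, or 0.0313%. MT1X held 4 cores, which begin 150, 122, 78 and 53 bases before the start, and 0.370% of promoters held at least 4. SLC30A1 held 1 core, on the other strand and 49 bases before the start, and MTF1 held none in this window, where 24.8% of promoters held at least 1. The antioxidant response element core TGACNNNGC occurred once in MT2A, once in MT1X and once in SLC30A1, against at least 1 in 10.9% of promoters. It overlapped no MRE core there. None of the 4 windows held the palindromic glucocorticoid response element (AGAACA and TGTTCT, 3 bases apart), found in 1 of the 35116 promoters. The heat shock element (GAA, TTC and GAA, each 2 bases apart), found in 0.441%, was absent from them too. With patterns this rare, a search without a match was likely for any promoter. The absence thus cannot show that these genes lack such elements, as variants of the letters and bases outside the windows were not searched. A match is a description of the letters and not evidence of binding.

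The number of reads assigned to genes ranged from 23419198 to 39319910 per library, and the treated knockout libraries (23419198 to 29939536) were all shallower than the untreated ones of the same lines (35627965 to 39319910). GPS2 RNA in the libraries labelled KO1 (4.46 to 4.54 CPM, the read count relative to library size) lay inside the range of WT (4.40 to 4.89 CPM). In KO2 (5.90 to 6.14 CPM) it lay above that range. Gene counts do not show whether a transcript was edited, and the paper reports that western blot and genomic PCR showed the knockdown of GPS2. KO1 and KO2 stand throughout for the libraries so labelled. AKT1 RNA was 218 to 242 CPM in myrAKT and 134 to 136 CPM in WT. All 6 markers of MDA-MB-231 cells lay between 208.5 and 1817 CPM in every library. Of 8 luminal markers, 5 had a median over 1 CPM (KRT18 at 198, KRT19 at 110.2, EPCAM at 8.15, FOXA1 at 6.43 and GATA3 at 3.28 CPM), while ESR1, at a median of 0.90 CPM, PGR, at 0.0340 CPM, and CDH1, at 0.0298 CPM, did not. Of 5 fibroblast markers, COL1A1 (14.4 CPM) and PDGFRB (12.9 CPM) had a median over 1 CPM, DCN and LUM had medians of 0, and none of 4 leukocyte markers reached that median. With MK2206, the summed MDA-MB-231 markers were at 3718 to 4171 CPM against 4487 to 4541 CPM in KO1, and at 4163 to 4434 CPM against 4660 to 4864 CPM in KO2. The summed luminal markers were at 313 to 352 CPM against 437 to 445 CPM in KO1 and at 254 to 279 CPM against 328.5 to 354.5 CPM in KO2, and the fibroblast markers at 28.0 to 28.9 CPM against 25.7 to 26.4 CPM and at 27.55 to 29.8 CPM against 25.8 to 26.2 CPM. In untreated cells, the summed luminal markers were at 446 to 480.5 CPM in WT and 223 to 237 CPM in myrAKT. The fibroblast markers were at 34.3 to 38.5 CPM in WT, 25.7 to 26.4 CPM in both knockout lines and 16.2 to 19.5 CPM in myrAKT, and the leukocyte markers at 0.192 to 0.264 CPM in WT and 0.693 to 1.03 CPM in myrAKT. The part of these marker levels in the MK2206 values and in the comparisons with WT was not tested. In such bulk libraries, fewer cells with a transcript and less of it per cell cannot be told apart.

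Of the 8 members, MT2A, MT1E, MT1X, MTF1 and SLC30A1 reached 1 CPM in 3 or more of the 18 libraries and entered the tests with 15587 genes in all. All 5 of them were at least 1.5-fold higher with MK2206 in each knockout line, against 6.36% of all genes tested in KO1 and 6.58% in KO2. This is the contrast by which the gene set was found. The median log2 fold change of the 5 genes was 1.40 in KO1 and 2.00 in KO2, and that of all genes was −0.02 and −0.03. CPM values were scaled by edgeR's TMM factors. A gene was called changed at an adjusted p of at most 0.001 (edgeR quasi-likelihood test, two-sided, Benjamini-Hochberg adjustment over all genes tested) together with a fold change of at least 1.5.

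**Figure D1:**
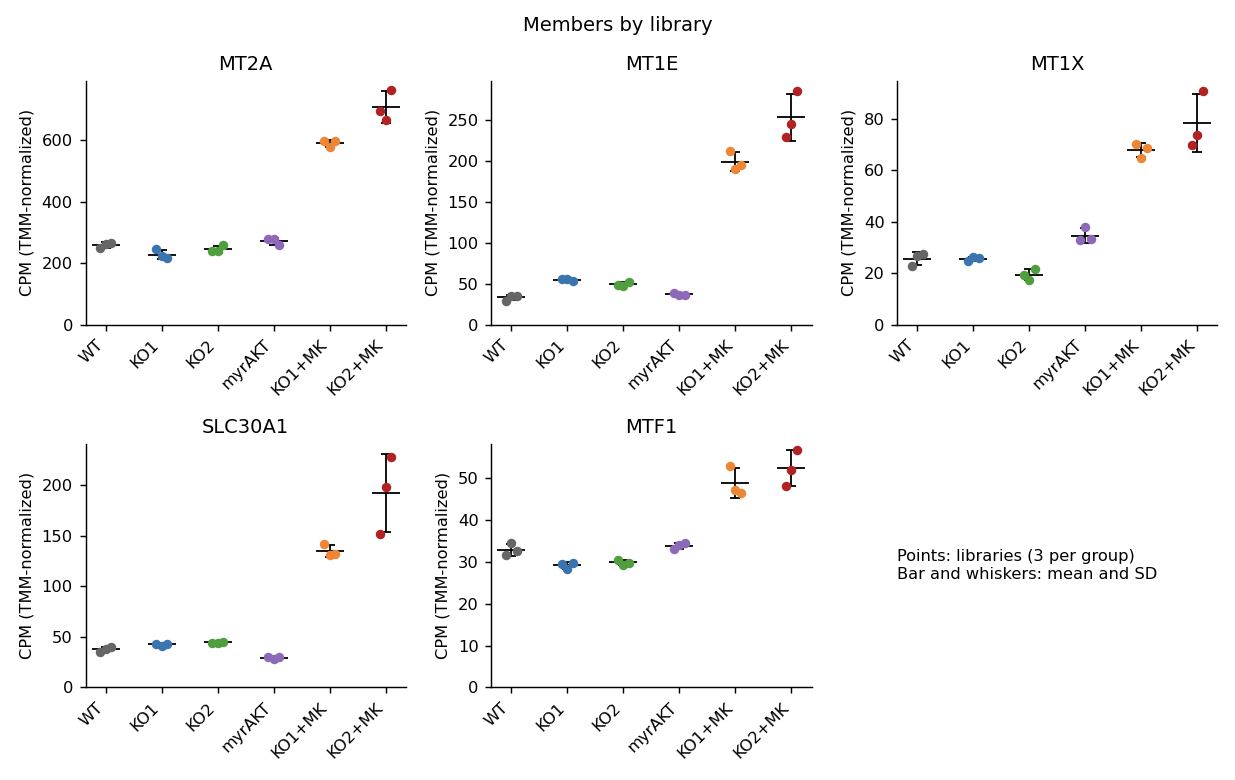
Level in CPM (linear axis from 0) of MT2A, MT1E, MT1X, SLC30A1 and MTF1 in each of the 18 libraries. Points are libraries, and bars with whiskers are the mean ± SD of the 3 libraries of a group. Every KO1+MK and KO2+MK library lies above every untreated library for all 5 genes, for instance at 577 to 764 CPM against 216 to 279 CPM for MT2A.

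MT2A, the most abundant metallothionein of these cells, was at 249, 263 and 266 CPM in the WT libraries, 245, 223.5 and 216 CPM in KO1, and 240.3, 238 and 259 CPM in KO2. It was at 279, 277 and 258 CPM in myrAKT, 597, 577 and 596 CPM in KO1+MK, and 695, 664 and 764 CPM in KO2+MK. Ordered by mean, the groups were KO1, KO2, WT, myrAKT, KO1+MK and KO2+MK, and each neighbouring pair of the 4 untreated groups overlapped, whereas the treated groups overlapped with no other group. With MK2206, MT2A was 2.59-fold higher in KO1 (228 ± 15.3 to 589.9 ± 11.1 CPM, SD, n = 3 each, log2 fold change 1.37, standard error 0.0481). In KO2 it was 2.88-fold higher (246 ± 11.3 to 707 ± 51.5 CPM, SD, n = 3 each, standard error 0.0513 on the log2 scale).

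Relative to the untreated parental cells, at 259 ± 8.91 CPM (SD, n = 3), MT2A had a log2 fold change of −0.18 in KO1 (standard error 0.0431, edgeR adjusted p = 0.00162) and −0.08 in KO2 (standard error 0.0401, adjusted p = 0.107). In myrAKT (271 ± 11.6 CPM, SD, n = 3) it was 0.07 (standard error 0.0477, edgeR adjusted p = 0.268). MT2A was thus called in none of these comparisons. The knockout and myrAKT comparisons share the 3 WT libraries, and the untreated knockout libraries also belong to the MK2206 contrast by which the genes were found. Treated knockout cells lay above WT as well, by 2.28-fold in KO1+MK and 2.73-fold in KO2+MK.

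MT1E, a metallothionein of the MT1 group, was at 29.4, 35.5 and 35.1 CPM in WT, 55.2, 55.6 and 53.8 CPM in KO1, and 48.8, 47.7 and 52.0 CPM in KO2. It was at 38.4, 35.9 and 36.8 CPM in myrAKT, 211, 189.5 and 194.5 CPM in KO1+MK, and 229, 245 and 284 CPM in KO2+MK. No groups overlapped for MT1E, and the order was WT, myrAKT, KO2, KO1, KO1+MK and KO2+MK. The nearest libraries of WT (35.5 CPM) and myrAKT (35.9 CPM) lay close together. Of the 5 members tested, MT1E had the highest fold with MK2206, at 3.62 in KO1 (log2 fold change 1.85, standard error 0.0451) and 5.11 in KO2 (2.35, standard error 0.0651).

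MT1E was also higher in the knockout lines without the drug. From a WT level of 33.3 ± 3.42 CPM (SD, n = 3) it rose 1.65-fold in KO1, to 54.9 ± 0.956 CPM (SD, n = 3; log2 fold change 0.72, standard error 0.0591, edgeR adjusted p = 7.80e-08). It was the 1 member of 5 called in KO1, where 13.8% of all genes tested were called. DESeq2 called 1 member there too. In KO2, at 49.5 ± 2.24 CPM (SD, n = 3), the log2 fold change was 0.57 (standard error 0.063, edgeR adjusted p = 1.84e-06), which passed the adjusted p but lay just under the minimum fold at 1.48. In KO2, 0 of 5 members were called by edgeR or DESeq2, where edgeR called 17% of all genes. An unadjusted p under 0.05 in edgeR was reached there by 4 of the 5 members and by 69.1% of all genes. With both lines together (52.2 ± 3.31 CPM, SD, n = 6) MT1E was called at a log2 fold change of 0.65 (standard error 0.0715, edgeR adjusted p = 1.41e-05), again as the 1 member of 5 against 12.7% of all genes. This call was lost without WT replicate 1, which held the lowest MT1E level of all libraries (log2 fold change 0.56, edgeR adjusted p = 8.00e-05), and the KO2 comparison passed the minimum fold without WT replicate 2, WT replicate 3 or KO2 replicate 2 (log2 fold changes 0.62, 0.61 and 0.60). In myrAKT, at 37.05 ± 1.27 CPM (SD, n = 3), the log2 fold change was 0.15 (standard error 0.0678, edgeR adjusted p = 0.0717).

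**Figure D2:**
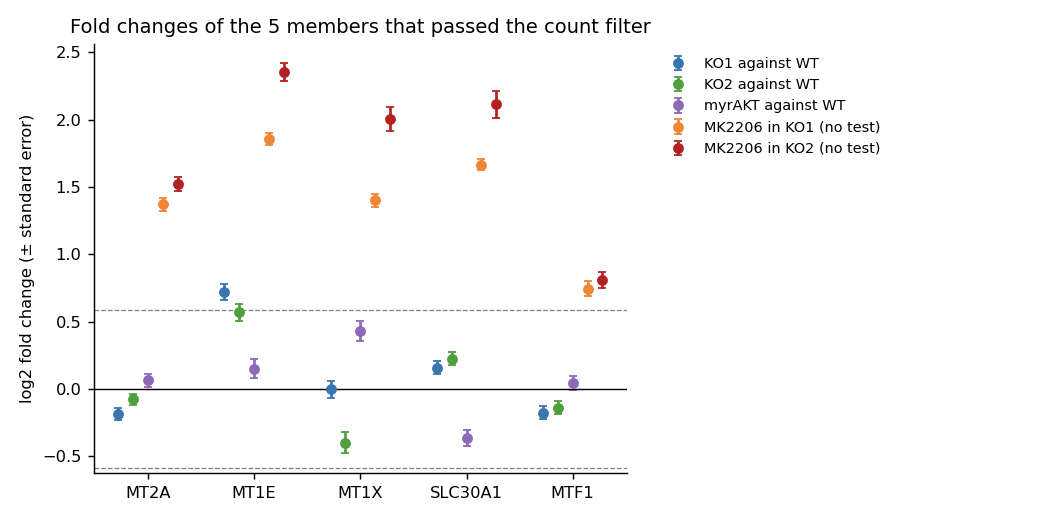
Log2 fold change ± standard error of each of the 5 members that passed the filter, for KO1, KO2 and myrAKT against WT and for MK2206 in KO1 and in KO2 (a description without a test). Dashed lines mark 1.5-fold in each direction. The MK2206 values lie between 0.75 and 2.35 and the untreated comparisons between −0.40 and 0.72.

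MT1X, another MT1 metallothionein, was at 22.9, 26.5 and 27.5 CPM in WT, 24.7, 26.2 and 26.0 CPM in KO1, and 19.3, 17.5 and 21.7 CPM in KO2. It was at 32.8, 37.8 and 33.2 CPM in myrAKT, 70.3, 64.65 and 68.4 CPM in KO1+MK, and 69.6, 73.8 and 90.9 CPM in KO2+MK. The KO1 libraries lay inside the range of WT, all KO2 libraries lay below WT, all myrAKT libraries lay above it, and the treated groups overlapped with each other only. With MK2206, MT1X was 2.64-fold higher in KO1 (log2 fold change 1.40, standard error 0.0484) and 4.01-fold higher in KO2 (log2 fold change 2.00, standard error 0.0891).

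Without the drug, the lines differed for MT1X. Its log2 fold change against WT (25.6 ± 2.42 CPM, SD, n = 3) was −0.00 in KO1 (25.6 ± 0.817 CPM, SD, n = 3, standard error 0.0631, edgeR adjusted p = 0.986) and −0.40 in KO2 (19.5 ± 2.12 CPM, SD, n = 3, standard error 0.0804, edgeR adjusted p = 0.000534). In myrAKT (34.6 ± 2.78 CPM, SD, n = 3) it was 0.43 (standard error 0.0738, edgeR adjusted p = 0.000183). Both the KO2 and the myrAKT difference passed the adjusted p, and neither reached the minimum fold of 1.5 (1.32-fold lower and 1.35-fold higher). In myrAKT, 0 of 5 members were called by edgeR or DESeq2, where edgeR called 13.9% of all genes. An unadjusted p under 0.05 in edgeR was reached by 3 of the 5 members and by 59.1% of all genes, a like share. MT1X shares 321 of its 1727 exon bases with a long noncoding RNA gene on the same strand (ENSG00000259827), which had no counts in any library.

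MTF1 RNA was at 31.6, 34.5 and 32.5 CPM in WT, 29.5, 28.2 and 29.7 CPM in KO1, and 30.5, 29.3 and 29.8 CPM in KO2. It was at 33.15, 34.0 and 34.6 CPM in myrAKT, 53.0, 47.2 and 46.5 CPM in KO1+MK, and 48.25, 52.0 and 56.8 CPM in KO2+MK. KO1 overlapped with KO2, WT with myrAKT and KO1+MK with KO2+MK, and the 3 pairs did not overlap with each other. MTF1 had the lowest fold of these 5 with MK2206, at 1.68 in KO1 (log2 fold change 0.75, standard error 0.0553) and 1.75 in KO2 (0.81, standard error 0.058). Against WT its log2 fold change was −0.18 in KO1 (edgeR adjusted p = 0.00524), −0.14 in KO2 (edgeR adjusted p = 0.0187) and 0.04 in myrAKT (edgeR adjusted p = 0.509). Against WT, KO1+MK lay just under a 1.5-fold difference (log2 fold change 0.57) and KO2+MK over it (1.59-fold), so that 4 of 5 members in KO1+MK and 5 of 5 in KO2+MK were at least 1.5-fold higher than in WT, where 7.77% and 11.3% of all genes were.

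SLC30A1, whose product (ZnT1) exports zinc and whose gene is a known target of MTF1, was at 35.4, 38.4 and 40.1 CPM in WT, 43.2, 41.3 and 42.9 CPM in KO1, and 43.7, 44.3 and 45.3 CPM in KO2. It was at 30.4, 28.2 and 30.03 CPM in myrAKT, 141, 131 and 132 CPM in KO1+MK, and 151, 198 and 227 CPM in KO2+MK. No groups overlapped, and the order was myrAKT, WT, KO1, KO2, KO1+MK and KO2+MK. With MK2206 it was 3.17-fold higher in KO1 (42.5 ± 1.04 to 134.8 ± 5.63 CPM, SD, n = 3 each, log2 fold change 1.67, standard error 0.0422). In KO2 it was 4.33-fold higher (44.4 ± 0.824 to 192 ± 38.3 CPM, SD, n = 3 each, log2 fold change 2.11, standard error 0.0989).

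In untreated cells SLC30A1 was called in none of the comparisons with WT (38.0 ± 2.42 CPM, SD, n = 3). Its log2 fold change was 0.16 in KO1 (standard error 0.0495, edgeR adjusted p = 0.0108), 0.22 in KO2 (standard error 0.0487, edgeR adjusted p = 0.000935) and −0.36 in myrAKT (29.6 ± 1.20 CPM, SD, n = 3, standard error 0.0588, edgeR adjusted p = 0.000112). The KO1 value, 1.12-fold higher, missed both the adjusted p and the minimum fold, and the KO2 and myrAKT values, 1.17-fold higher and 1.28-fold lower, passed the adjusted p and missed the minimum fold. The difference between the knockout and myrAKT values was not tested.

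Direct comparison of the untreated lines gave 0 of 5 members called in KO2 against KO1 by edgeR or DESeq2, where edgeR called 2.75% of all genes. In edgeR, 3 of the 5 members and 43.2% of all genes had an unadjusted p under 0.05. MT1X was lower in KO2 by a log2 fold change of −0.40 (standard error 0.0643, edgeR adjusted p = 9.29e-05, 1.32-fold) and MT1E by −0.15 (standard error 0.0422, edgeR adjusted p = 0.0105, 1.11-fold). For MT2A the log2 fold change was 0.11 (edgeR adjusted p = 0.0622), for MTF1 0.04 (edgeR adjusted p = 0.584) and for SLC30A1 0.07 (edgeR adjusted p = 0.244).

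The MK2206 effect in KO2 minus that in KO1 was tested for the members other than MT2A, whose own MK2206 response had chosen the set. This is a different contrast from the effect itself but uses the same libraries, and it is not independent support for that effect. All 5 differences were above 0, that is, higher in KO2. They were 0.60 for MT1X (standard error 0.119, edgeR adjusted p = 0.0407), 0.50 for MT1E (standard error 0.089, edgeR adjusted p = 0.0218) and 0.45 for SLC30A1 (standard error 0.132, edgeR adjusted p = 0.296) on the log2 scale. For MTF1 the difference was 0.06 (standard error 0.0842, edgeR adjusted p = 0.891), and for MT2A, as a description, 0.15 (standard error 0.0747). By edgeR 0 of these 4 members and 0% of all genes were called, and 3 of the 4 and 7.83% of all genes had an unadjusted p under 0.05. DESeq2 called 5 genes, among them 1 member, MT1X (adjusted p = 0.000383). MT1E passed the adjusted p of DESeq2 (7.59e-05) but not the minimum fold, at 1.41 in edgeR. Without KO2+MK replicate 1, SLC30A1 was called (difference 0.59, edgeR adjusted p = 0.000575). KO2+MK replicate 3 held the highest level of all 5 genes within its group, and KO1+MK replicate 1, the shallowest library of the study, held the highest level of all 5 within its own. For MT1X the difference of 0.60 includes the lower level of untreated KO2 against untreated KO1.

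MT1F, MT1G and MT1M stayed under the filter and are given in reads. MT1F, a metallothionein of the same cluster, had 10, 27 and 21 reads in WT, 3, 6 and 7 in KO1, 3, 0 and 5 in KO2, and 9, 8 and 12 in myrAKT. It had 6, 3 and 2 reads in KO1+MK and 5, 4 and 5 in KO2+MK, the groups in which MT2A, MT1E and MT1X were at their highest. Scaled to CPM, all 6 knockout libraries (mean 0.110 CPM) lay below all 3 WT libraries (mean 0.534 CPM), which is 4.87-fold lower (two-sided exact permutation test, p = 0.0119, the smallest that 6 against 3 allows, and 0.0476 adjusted over 4 comparisons). From the summed reads, 58 in WT, 16 in KO1 and 8 in KO2, MT1F was 3.74-fold lower in KO1 (exact 95% counting interval 2.12 to 6.97) and 7.43-fold lower in KO2 (3.53 to 18.0). The exact permutation p was 0.1 for each line, the smallest that 3 against 3 allows. All 4 comparisons concern MT1F, in groups that share libraries. The adjustment thus does not cover the choice of this gene, the only member under the filter that was tested. The KO2 mean of 0.0741 CPM lies under the level of 3 counts per library (0.0817 CPM), and the fold between the means, 7.20, was 12.4 without KO2 replicate 3. In myrAKT it was 1.91-fold lower with overlapping libraries (exact permutation p = 0.2).

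MT1G had 1 to 4 reads in the WT libraries, 3 in each KO1 library, 1 to 4 in KO2 and 0 to 4 in myrAKT. It had 6, 3 and 6 reads in KO1+MK and 6, 11 and 4 in KO2+MK. MT1M had 0 reads in all 18 libraries, which at 3 counts per library allows up to 0.0774 to 0.125 CPM. The floor and the counting intervals cover sampling of reads only. Of the 7 other metallothioneins on the list used here, 1 passed the filter, MT1A (ENSG00000205362, chromosome 16, 56638666 to 56640087), and it passed through WT, so that it had to be lower elsewhere and is given with no test. MT1A had 60, 67 and 65 reads in WT, 35, 36 and 32 in KO1, 2, 1 and 2 in KO2 and 0 in every myrAKT library. With MK2206 it had 18, 17 and 25 reads in KO1+MK and 0 in every KO2+MK library. The MT1A level was 1.78 ± 0.0495 CPM in WT and 0.928 ± 0.0441 CPM in KO1 (SD, n = 3 each). Against the floor of 3 counts per library, and as a description, it was at least 20.2-fold lower than in WT in myrAKT and at least 17.3-fold lower in KO2+MK. MT2P1 (ENSG00000162840), a metallothionein pseudogene outside that list and named after its values were seen, also passed the filter. It was at 1.01 ± 0.148 CPM in WT, 0.9045 ± 0.356 in KO1, 1.27 ± 0.0432 in KO2, 1.03 ± 0.159 in myrAKT, 1.70 ± 0.584 in KO1+MK and 2.52 ± 0.3355 in KO2+MK (CPM, SD, n = 3 each). MT1A, MT1F, MT1G and MT1M, with few or no reads, thus lie in the same cluster as the abundant MT2A.

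**Figure D3:**
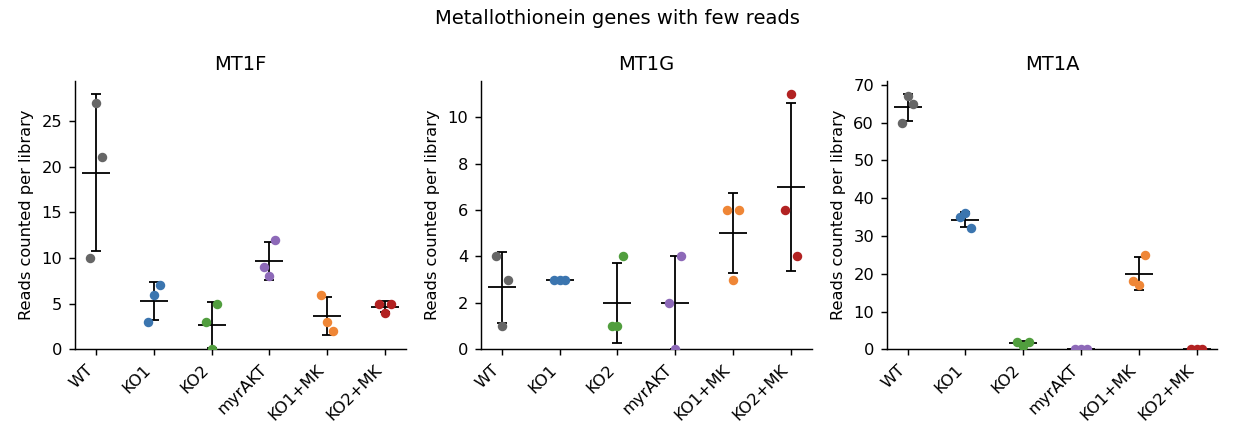
Reads per library of MT1F, MT1G and MT1A in the 18 libraries (linear axes from 0), as deposited and not scaled to depth. MT1A has 60 to 67 reads in WT and 0 in myrAKT and KO2+MK, and MT1F has 10 to 27 reads in WT and at most 7 in the knockout libraries.

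The make-up of the metallothionein RNA differed between groups. Reads on all metallothionein members added up to 319 ± 14.8 CPM in WT, 309 ± 15.0 CPM in KO1, 315 ± 15.7 CPM in KO2 and 343 ± 12.9 CPM in myrAKT (SD, n = 3 each). They added up to 856.5 ± 23.8 CPM in KO1+MK and 1039 ± 87.7 CPM in KO2+MK (SD, n = 3 each). MT2A made up 80.7 to 82.5% of these reads in the WT libraries, 72.9 to 75.4% in KO1, 77.8 to 78.5% in KO2 and 78.55 to 79.6% in myrAKT. Its share was lowest in the treated libraries, at 67.9 to 69.4% in KO1+MK and 67.05 to 69.9% in KO2+MK. The share of MT1E was 9.74 to 10.9% in WT, 10.2 to 11.2% in myrAKT, 17.0 to 18.2% in KO1 and 15.6 to 15.8% in KO2, and 22.6 to 24.05% and 23.1 to 24.95% in KO1+MK and KO2+MK. MT1X made up between 6.18% (KO2) and 10.1% (myrAKT) on average in every group.

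The ratio of MT1E to MT2A reads does not depend on library scaling. It was 0.118 to 0.135 in the WT libraries and 0.130 to 0.143 in myrAKT, 0.225 to 0.249 in KO1 and 0.200 to 0.203 in KO2. In the treated libraries it was 0.326 to 0.354 for KO1+MK and 0.330 to 0.372 for KO2+MK. WT and myrAKT overlapped, the treated groups overlapped, and the untreated knockout lines lay between these pairs without overlap. The ratio of MT1X to MT2A was between 0.0734 and 0.136 in all 18 libraries, lowest in KO2 and highest in myrAKT. Ratios of this kind show unequal change and not which gene moved.

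**Figure D4:**
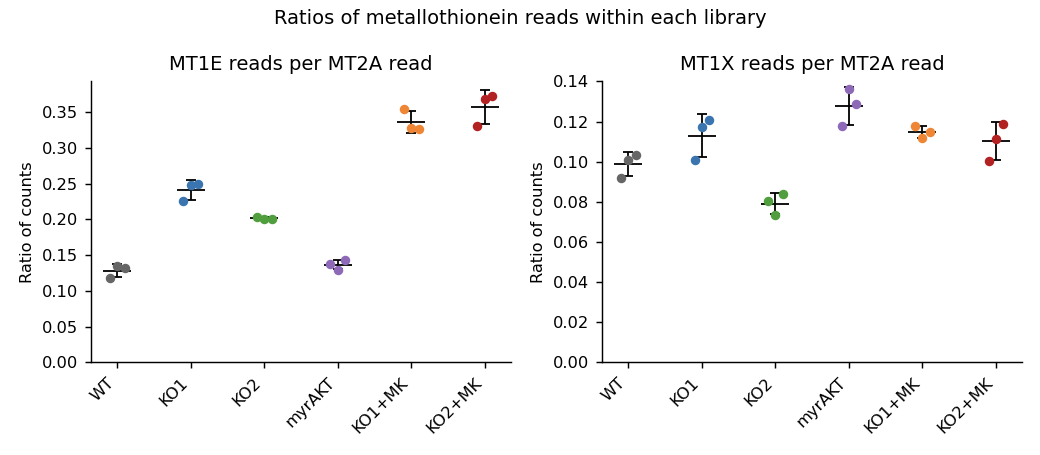
Ratio of MT1E reads and of MT1X reads to MT2A reads in each library (no unit, axes from 0), with group means. The mean MT1E ratio is 0.128 in WT, 0.241 in KO1, 0.201 in KO2, and 0.336 and 0.357 in the treated lines, while the MT1X ratio has group means between 0.0791 and 0.128.

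Compared per length, as CPM per kb of the canonical transcript, MT2A was the most abundant member in WT (646.4 ± 22.2), followed by MT1X (63.4 ± 5.98), MT1E (44.7 ± 4.58), SLC30A1 (6.45 ± 0.411), MTF1 (4.15 ± 0.187) and MT1F (1.25 ± 0.531), each with its SD and n = 3. The canonical MT1E model is longer, at 746 bases, than that of MT1X, at 404, and per kb of all exons the order of this pair was the other way, at 31.7 for MT1E and 14.8 for MT1X. The genes resemble each other in sequence, which bears on where reads can be placed. Of the windows of 75 bases in the canonical transcript, the read length of the study, 0 of 327 in MT2A were identical to a window of another metallothionein gene. The number was 27 of 330 in MT1X (8.18%, shared with MT1G and MT1XP1), 11 of 672 in MT1E (1.64%, shared with MT1G and MT1M) and 22 of 336 in MT1G (6.55%). The treatment of reads that fit several genes is not given in the sources used here, so MT1X, MT1E and MT1G values are uncertain to that extent.

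No other tested gene of zinc or copper transport on the lists used here reached a 1.5-fold difference with the drug. Of the 14 zinc importers of the ZIP family, 12 were tested, and 0 were at least 1.5-fold higher or lower with MK2206 in KO1 (log2 fold changes −0.32 to 0.14) or in KO2 (−0.45 to 0.10). The same held for the 7 tested genes of 10 that encode zinc exporters and vesicle loaders other than SLC30A1, with medians of 0.05 and 0.11, and for 12 of 14 genes of copper handling, with medians of −0.01 and −0.03. In untreated cells, 1 of the 12 ZIP genes in KO1 (8.33%), 2 in KO2 (16.7%) and 2 in myrAKT (16.7%) were called, all lower, against 13.8%, 17% and 13.9% of all genes, that is, under the share over all genes in KO1 and near it in KO2 and myrAKT. SLC39A11, a zinc transporter of this family, had the largest ZIP change (KO2 against WT, log2 fold change −1.24, edgeR adjusted p = 2.43e-08), from 9.75 ± 0.0613 to 4.11 ± 0.391 CPM (SD, n = 3). SLC39A13, which releases zinc from vesicles, was next, in myrAKT (log2 fold change −0.86, edgeR adjusted p = 1.20e-08). Among the exporters and loaders, 1 of 7 was called in KO1 and in KO2 (14.3% each) and 0 in myrAKT. The gene was TMEM163, which transports zinc out of the cytosol (−1.22 in KO2, edgeR adjusted p = 8.41e-07). Of the 12 copper genes, 2 were called in each line (16.7%) and 1 in myrAKT (8.33%), all lower. Those in both lines were STEAP2, a metal reductase (−1.35 in KO2, edgeR adjusted p = 5.09e-09), and ATP7B, a copper exporter (−0.75 in KO1, edgeR adjusted p = 6.58e-07), and STEAP2 was the 1 called in myrAKT.

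Lists for the other known inducers of metallothioneins were set beside these. Of 20 target genes of NRF2, the oxidant sensor, 19 were tested and 0 were at least 1.5-fold different with MK2206 in either line (medians −0.08 in KO1 and 0.03 in KO2). Without the drug 2 were called in KO1 (10.5%), 3 in KO2 (15.8%) and 1 in myrAKT (5.26%), all higher, which is under the share over all genes in each comparison (13.8%, 17% and 13.9%). NQO1, a quinone reductase, rose from 130 ± 9.94 CPM in WT to 328 ± 9.18 CPM in KO2 (SD, n = 3 each, log2 fold change 1.33, edgeR adjusted p = 4.27e-11), and AKR1C1, an aldo-keto reductase with near-identical paralogs, was higher in myrAKT (log2 fold change 4.11, edgeR adjusted p = 5.07e-12).

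Of 15 target genes of the glucocorticoid receptor, 13 were tested, of which 3 in KO1 and 5 in KO2 were at least 1.5-fold higher with MK2206 and 0 lower (23.1% and 38.5%, against 6.36% and 6.58% of all genes; medians 0.23 and 0.54). They were chosen for naming after their values were seen. KLF9, PER1 and TSC22D3 were 2.41-fold, 1.73-fold and 1.73-fold higher in KO1 and 2.49-fold, 2.22-fold and 2.05-fold higher in KO2, and DUSP1 and SGK1 were 1.74-fold and 1.59-fold higher in KO2 (1.18-fold and 1.35-fold in KO1). KLF9, a transcription factor, and most other called genes of this list were lower in untreated knockout cells. In KO1 4 genes were called lower and 0 higher (30.8% of the 13), in KO2 8 lower and 1 higher (69.2%), and in myrAKT 6 lower and 2 higher (61.5%), against 13.8%, 17% and 13.9% of all genes. KLF9 had the largest change (KO2, log2 fold change −2.52, edgeR adjusted p = 1.94e-11, from 22.1 ± 1.17 to 3.83 ± 0.415 CPM, SD, n = 3), and CDKN1C, an inhibitor of the cell cycle, was next, in myrAKT (−1.83, edgeR adjusted p = 2.36e-10).

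Of 14 heat shock response genes, 13 were tested, and 3 in each line were at least 1.5-fold higher with MK2206 and 0 lower (23.1%, against 6.36% of all genes in KO1 and 6.58% in KO2; medians 0.04 and 0.13). These were DNAJB1 (1.74-fold in KO1 and 2.03-fold in KO2) and HSPA1A and HSPA1B (1.54-fold and 1.93-fold in KO1, 1.94-fold and 2.32-fold in KO2), the last 2 near-identical genes whose reads may be divided between them. They were also chosen after their values were seen. In untreated cells, 2 genes were called lower and 0 higher in KO1, and 1 each way in KO2 and in myrAKT. This is 15.4% of the 13 in each comparison, near the 13.8%, 17% and 13.9% of all genes. In KO2 HSPA1A was lower (−1.02, edgeR adjusted p = 1.26e-06) and HSPH1, a chaperone, higher (0.70, edgeR adjusted p = 7.34e-09). The part of zinc, glucocorticoid signalling, oxidants or heat in the MK2206 values was not tested.

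**Figure D5:**
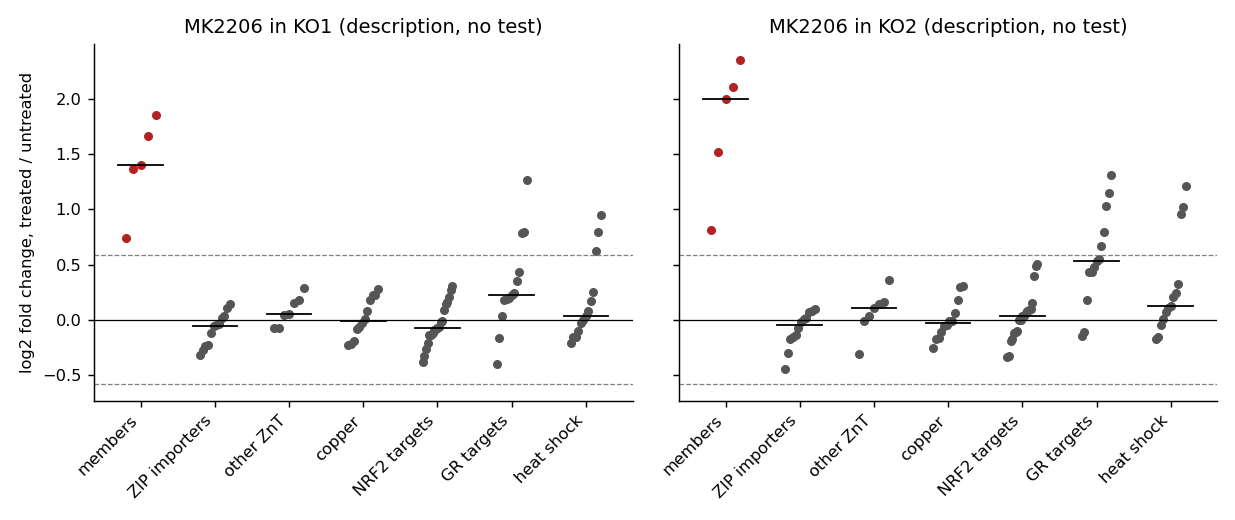
Log2 fold change with MK2206 in KO1 and in KO2 (description without a test) for the 5 tested members and for the tested genes of 6 lists. Each point is a gene, each short line the median of its list, and dashed lines mark 1.5-fold. The members lie between 0.75 and 2.35, and the ZIP, other ZnT, copper and NRF2 lists between −0.45 and 0.50. The glucocorticoid receptor list lies between −0.40 and 1.32 and the heat shock list between −0.21 and 1.21, so both reach into the range of the members.

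The genes whose pattern over the 18 libraries was most like that of MT2A were found by the root mean square difference of log2 CPM, each gene centred on its own mean, among 15586 other genes. They were MXD1, a partner of MAX that represses transcription (0.132), MIDN, a protein that brings nuclear proteins to the proteasome (0.137), the gene ENSG00000260912 (0.152), the transcription factor GRHL1 (0.161) and NAB2, a corepressor of EGR proteins (0.162), against a median of 0.699 over all genes. The same 5 genes came first over the 6 group means. MXD1 was at 26.3 ± 1.38 CPM in WT, 26.6 ± 1.21 CPM in KO1 and 26.8 ± 2.11 CPM in KO2, and at 58.6 ± 3.26 CPM in KO1+MK and 76.55 ± 14.4 CPM in KO2+MK (SD, n = 3 each). Among the members, MT1X ranked 22 (0.233), MTF1 114 (0.332), SLC30A1 475 (0.433) and MT1E 2423 (0.576). By this measure MT1E, which lies on chromosome 16 like MT2A, was farther from it than SLC30A1 and MTF1 on chromosome 1 were. The measure includes the treated libraries, by whose MT2A level the set was chosen. It also counts the size of a change, so a gene that moves further in the same direction is placed farther away. With MK2206, MT1E rose 3.62-fold in KO1 and 5.11-fold in KO2, against 2.59-fold and 2.88-fold for MT2A.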

How the data were processed

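RNA-seq of 18 MDA-MB-231 libraries (6 groups of 3, grouped by the sample labels) was analysed. The deposited values are counts of reads per Ensembl gene, without normalization. Per the submitters' processing notes and the methods of the study, the authors made them with FastQC, Trim Galore, HISAT2 on hg38, featureCounts and MultiQC, from ribosome-depleted libraries sequenced as 1 pool in 2 runs. Tool versions, the annotation, the strand setting and the treatment of reads that fit several genes are not given in the sources used here. The counts are not divided by run, and no other batch is named in the labels or the methods. Gene positions came from GENCODE release 44 and promoters from RefSeq. The members and the gene lists were chosen with earlier results of these data known.

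Libraries held 23419198 to 39319910 counted reads, and replicates differed by more than sampling noise (mean chi-square per gene 2.14 to 9.78). The 15587 genes that reached 1 CPM in 3 or more of the 18 libraries were tested with edgeR 4.0.16 in R 4.3.3 (TMM factors over all libraries, quasi-likelihood test between the groups compared, Benjamini-Hochberg adjustment). The methods of the study name DESeq2, which was run as an alternative (1.42.0). A prior count of 2 was used for log2 CPM. Members under the filter were given as reads. Of these, MT1F alone was tested, by exact permutation, which was not among the planned comparisons. Python 3.11.15 with pandas 2.3.3, numpy 2.4.6, matplotlib 3.10.9 and scipy 1.17.1 made the tables and plots. The steps were first tested on simulated data with known changes.

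Named were all members, the 2 genes of each list with the largest called change in KO1, KO2 or myrAKT against WT, the 5 genes most like MT2A, and GPS2 and AKT1 as checks. KLF9 and HSPA1A with MK2206, and PER1, TSC22D3, DUSP1, SGK1, DNAJB1, HSPA1B and MT2P1, were named outside this rule, after their values were seen. The alternatives were other scalings, other filters on low counts, all libraries in 1 fit, a replicate block, DESeq2, other thresholds, and each library left out in turn. The alternatives for treated knockout cells against WT and the left-out libraries for MT1F were chosen after seeing the data. Comparisons rest on 3 libraries a group, which limits their precision. Replicate numbers did not pair the samples, as 12 of 45 same-numbered and 27 of 90 other pairs of deviations had a correlation over 0.1. Single pairs from different groups reached 0.59 (myrAKT replicate 3 and KO1+MK replicate 1) and −0.52 (myrAKT replicate 1 and KO1+MK replicate 1). The source of this shared variation was not tested.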

Additional observations from a re-analysis of the deposited data

Results flagged for a closer look

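Among 14 groups of 6 libraries in which the highest and lowest values of the members were examined, 1 value stood apart by Dixon's test, which flags about 1 in 20 groups by chance. It was MT1X at 90.89 CPM in KO2+MK replicate 3, the highest of the 6 treated knockout libraries, and the groups of 3 libraries were not examined in this way.

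The knockout lines differed from each other in 4 values past an adjusted p of 0.05 (edgeR, Benjamini-Hochberg). In KO2 against KO1, 2 of the 5 members reached that adjusted p, and so did 33.5% of all genes. In the difference between the MK2206 effects, 0.25% of all genes reached it. Untreated KO2 differed from untreated KO1 by a log2 fold change of −0.3965 for MT1X and −0.1483 for MT1E, with all 3 KO2 libraries below all 3 KO1 libraries for both genes. The MK2206 effect was higher in KO2 than in KO1 by 0.6019 for MT1X and 0.4983 for MT1E on the log2 scale. These differences include the lower untreated levels of both genes in KO2, so the 4 values are not separate. Counted reads, at 35627965 to 39319910 in untreated and 23419198 to 29939536 in treated libraries, move with the treatment in both lines, and their part in these values was not tested.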

How the results depend on the processing

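No alternative changed the direction of a tested or described fold change of the 5 members, except for MT1X in KO1 against WT, which was near 0. Its log2 fold change was 0.0025 with the replicate number as a block and ranged from −0.075 to 0.0514 with 1 library left out at a time. Replicate numbers did not pair the samples (12 of 45 same-numbered and 27 of 90 other pairs had a correlation over 0.1), and the replicate block changed no member's call. The cause of the following changes was not tested. Testing every gene with at least 1 count gave 2 called members in KO1, 1 in KO2, 2 in the pooled lines and 1, MT1X, in the difference between the MK2206 effects. Without a minimum fold, 3 of the 5 members passed in KO2, 2 in myrAKT and 1 in KO2 against KO1. Of all genes, 43.8%, 29.8% and 12.7% passed in these comparisons. In the difference between the MK2206 effects, DESeq2 called 1 member, and so did an adjusted p of at most 0.05 with the same fold. With 1 library left out, 0 to 1 members were called in KO2, in the pooled lines and in that difference. The MK2206 folds moved by more than their replicate spread in KO1 with library totals (log2 fold change 1.46 for MT1X and 1.72 for SLC30A1), and MT2A in KO1+MK against WT with upper-quartile factors (1.14).

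Over all genes, dropping the minimum fold raised the calls from 2147 to 6540 in KO1, 2642 to 6829 in KO2, 1974 to 5059 in the pooled lines, 2162 to 4645 in myrAKT and 428 to 1980 in KO2 against KO1, the last also 732 at an adjusted p of 0.05 with the fold kept. The difference between the MK2206 effects had 0 calls, and 33 without the filter, 5 by DESeq2, 2 without a minimum fold, 7 at an adjusted p of 0.05, and 0 to 2 with 1 library left out. Without the filter, genes past 1.5-fold went from 1567 to 14915 with MK2206 in KO1, 1766 to 14894 in KO2, 2962 to 16735 in KO1+MK against WT and 4136 to 18500 in KO2+MK against WT. Depth limits MT1F, MT1G, MT1M and MT1A, whose values rest on at most 67 reads per library.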
